A study of Mus musculus with 96 samples.

Results

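Frizzled receptors, the ligand gene Wnt5a and the beta-catenin gene Ctnnb1 were followed through 96 single cells of the mouse uterus at postnatal day 7. They make up 6 of the 96 assays of the panel: Fzd4, Fzd7, Fzd9, Fzd10, Wnt5a and Ctnnb1, chosen by gene name and not by their values. In the table Fzd4, Fzd9 and Fzd10 stand under their CD designations, cd344, cd349 and cd350. All cells belong to a single group, sorted for CD326 (EpCAM, an epithelial adhesion molecule) after collagenase digestion of the uterus. The labels give no strain, treatment, comparison group or animal, so the cells may come from 1 mouse or several and do not count as replicates of a condition. The unit is the cycle threshold (Ct), the number of PCR cycles needed to see product, so that a lower Ct stands for more template, and a gene was counted as detected when its Ct was below 28.

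WNT proteins are secreted ligands that bind frizzled receptors at the cell surface. In the canonical branch the signal stops the destruction of beta-catenin, which then enters the nucleus and acts on transcription with TCF and LEF factors; in other branches it acts on cell shape and polarity without beta-catenin. In the mouse uterus, WNT signals pattern the Müllerian duct and are needed for the glands that form after birth. Wnt5a is known in the developing female tract as a ligand made mainly by mesenchyme, and beta-catenin also has a structural role at the adherens junctions of epithelial cells.

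Cells differed widely in how much of the panel they yielded. Over the 90 assays outside the 6 genes, a cell detected between 8 and 72. In 8 cells Gapdh, the glycolytic gene used as a reference, came later than a Ct of 18 or gave no value, against a median Ct of 13.4, and these low-Gapdh cells detected 8 to 28 of the 90 assays where the other 88 cells detected 21 to 72. Among them, cell 67 has no value in the first 71 assays of the table, which hold Ctnnb1, Wnt5a, Fzd4 and Fzd7, but detected 16 of the last 25, which hold Fzd9 and Fzd10. Epithelial markers were present in most cells. Of 6 such genes, Krt19 was found in 93 cells, Krt18 in 91, Krt8 and Cd24a in 87 each, Cdh1 in 85 and Epcam in 74, and 65 cells had all 6. Because levels of different assays depend on primers, Ct values are set side by side between genes only in rough order.

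Fzd7 and Ctnnb1 were found in nearly every cell, Fzd4 in a little over 50%, and Wnt5a, Fzd9 and Fzd10 in a minority. Of the 6 genes, 3 were found in at least 50% of cells, where 55.2% of all assays of the panel reached that share. Fzd7, a receptor known from the stem cell compartment of the mouse intestine, was detected in 87 of 96 cells (90.6%, exact Clopper-Pearson 95% interval 82.9 to 95.6%). Ctnnb1 was detected in 85 (88.5%, interval 80.4 to 94.1%). Fzd4, which also serves as the receptor of the non-WNT ligand norrin in retinal vessels, was detected in 54 (56.2%, interval 45.7 to 66.4%). Wnt5a was found in 40 cells (41.7%, interval 31.7 to 52.2%). Fzd9, known for its roles in bone and brain, was found in 30 (31.2%, interval 22.2 to 41.5%), and Fzd10 in 29 (30.2%, interval 21.3 to 40.4%). Intervals cover counting error only. In this order of shares those of Fzd7 and Ctnnb1 overlapped, Ctnnb1 and Fzd4 were apart, and each later neighbour overlapped the one before it. Without the low-Gapdh cells the order was Ctnnb1 at 95.5% of 88 cells, Fzd7 at 94.3%, Fzd4 at 61.4%, Wnt5a at 45.5%, and Fzd9 and Fzd10 at 33.0% each.

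**Figure D1:**
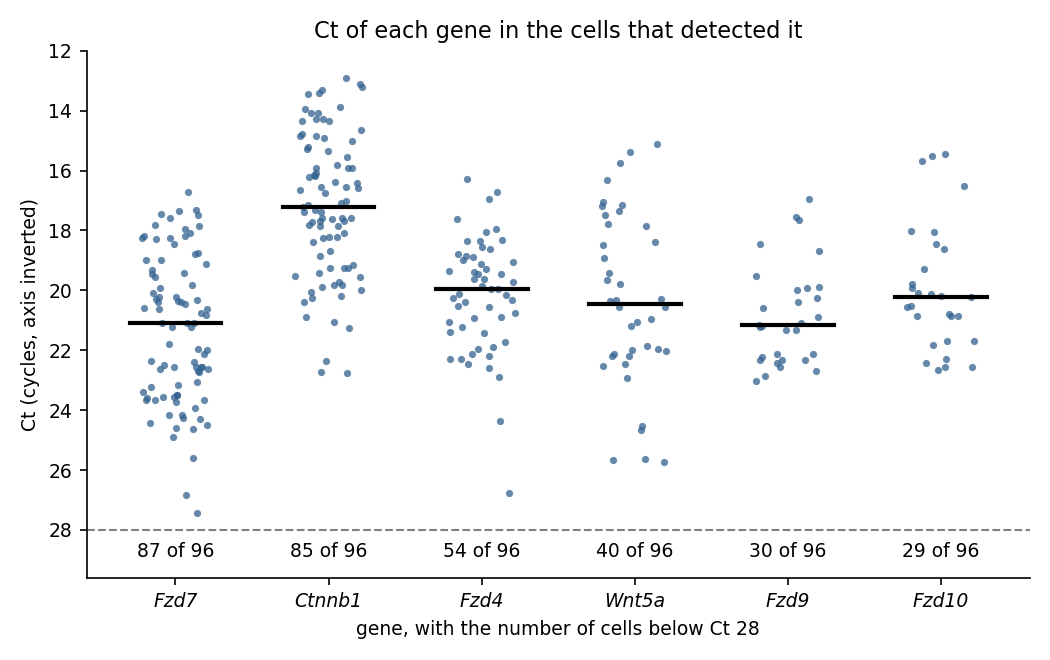
Ct of each gene (cycles, inverted axis, so that more template is higher) in every cell with a Ct below 28, with points spread sideways at random, the median as a black bar, the limit as a dashed line and the number of detecting cells below it. Fzd7 was found in 87 cells with values down to the limit, while the latest values are 23.0 for Fzd9, 22.7 for Fzd10 and 22.8 for Ctnnb1.

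Ctnnb1 gave the earliest Ct of the 6 genes, and Fzd7 came nearest to the limit. Among detecting cells Ctnnb1 ran from 12.9 to 22.8 with a median Ct of 17.2. None of its cells lay near the limit, and 75 of the 85 had a Ct of 20 or below. Fzd7 ran from 16.7 to 27.4 with a median Ct of 21.1, and 12 of its 87 cells lay between 24 and 28. Wnt5a covered a similar span, 15.1 to 25.7 with a median Ct of 20.5, and 5 of its 40 cells lay later than 24. Fzd4 ran from 16.3 to 26.8 with a median Ct of 20.0, though only 2 cells were later than 24. Fzd9 and Fzd10 were found well before the limit or had no value at all. The range was 16.9 to 23.0 with a median of 21.2 for Fzd9, and 15.4 to 22.7 with a median of 20.2 for Fzd10. Among the 78 assays found in at least 20 cells, 28 had no Ct later than 24, so this gap before the limit was shared by other assays. Near the limit itself, the latest values counted as detected were 27.4 and 26.8 for Fzd7 and 26.8 for Fzd4. The only recorded value of the 6 genes past the limit was a Ct of 28.1 for Fzd7.

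Detection of every one of the 6 genes depended on how much of the panel a cell yielded, but Fzd7 least so at the low end. When cells were ranked by the number of other assays detected and divided into 4 classes of 24, Fzd7 was found in 19, 23, 22 and 23 cells from the shallowest class to the deepest. Ctnnb1 was found in 14, 24, 23 and 24. Fzd4 was found in 6, 14, 16 and 18 cells, close to the median of the other 90 assays, which was 25.0% of cells in the shallowest class and 83.3% in the deepest. Wnt5a was found in 3, 11, 10 and 16 cells. Fzd9 was found in 4, 6, 9 and 11, and Fzd10 in 2, 5, 9 and 13. Even in the deepest class Fzd9 reached 45.8% and Fzd10 54.2% of cells, below the panel's median, and Wnt5a reached 66.7%. A cell without a value is thus not shown to lack the transcript, and the shares of Fzd4, Wnt5a, Fzd9 and Fzd10 over all cells are those at this depth.

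**Figure D2:**
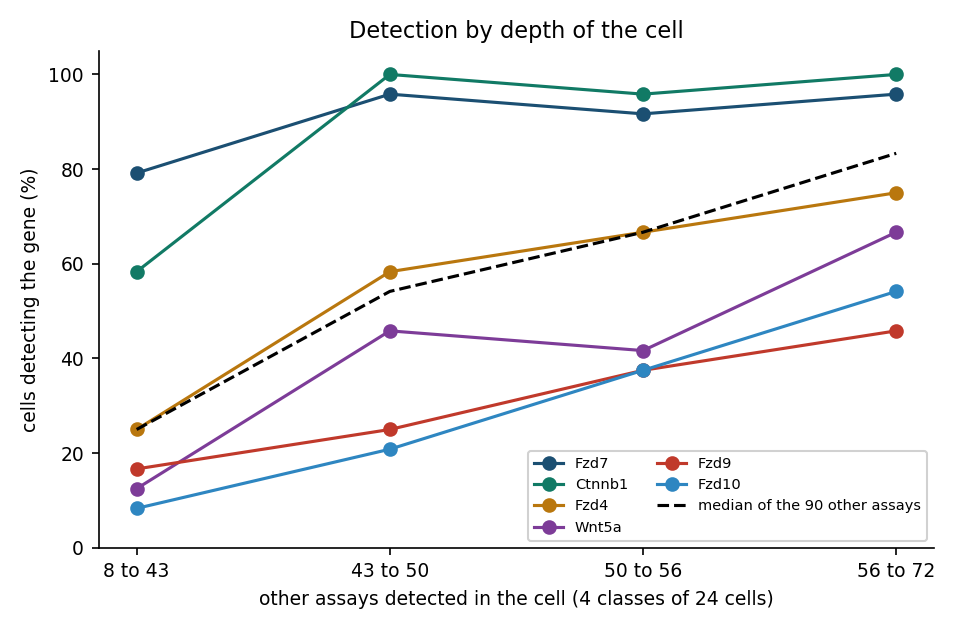
Percent of cells detecting each gene in 4 classes of 24 cells, ordered by the number of the other 90 assays detected, with the median of those assays as a dashed line. Fzd7 and Ctnnb1 lie above the dashed line in all 4 classes, while Wnt5a, Fzd9 and Fzd10 lie below it.

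The low-Gapdh cells showed where Fzd7 departed from the rest. Of these 8 cells, Fzd7 was detected in 4, Ctnnb1 in 1, Fzd9 in 1 (cell 67) and Fzd4, Fzd10 and Wnt5a in none. This was not particular to Fzd7. Outside the 6 genes, Myc, Epcam and Krt18 were also found in 4 of the 8 and Krt19 in 6, while Lgr4, Lgr6 and Wnt7a were found in none. Fzd7 had a Ct of 22.0 in cell 73, 22.1 in cell 86, 23.1 in cell 87 and 24.6 in cell 2. It came 1.44 cycles after Gapdh in cell 73 and 0.921 cycles after it in cell 86. The median gap was 7.75 cycles in the 83 cells outside this group that detected Fzd7. Gapdh itself came at a Ct of 20.5 in cell 73 and 21.2 in cell 86. With the limit of 28, a gap of 7.75 cycles could not be detected there. That the gap was below 7.75 cycles in cells 73 and 86 was thus fixed by the choice of cells, but how far below was not. In cell 87, with Gapdh at 18.4, the gap was 4.63 cycles, and in cell 2, with Gapdh at 18.3, it was 6.26 cycles. Why these gaps were small was not tested. The 4 Fzd7 Ct values of this group are within the range of Fzd7 in cells with early Gapdh. The coding sequences of Fzd7, Fzd9 and Fzd10 each lie in a single exon, so that an assay placed there reads genomic DNA as well as cDNA; whether this contributed was not tested.

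In the 88 cells with early Gapdh, where a gene was detected, Ctnnb1 followed Gapdh more closely than Fzd4 or Fzd7 did. The Spearman rho between the Ct of a gene and that of Gapdh was 0.71 for Ctnnb1 (84 cells), 0.63 for Fzd9 and for Fzd10 (29 cells each) and 0.62 for Wnt5a (40 cells). It was 0.47 for Fzd7 (83 cells) and 0.35 for Fzd4 (54 cells). The median over 75 assays was 0.54, which puts Ctnnb1 at rank 12 from the top and Fzd4 at rank 62. These are descriptions of cells that share amount of RNA and preamplification, and no p is given. After subtraction of the Gapdh Ct, the spread between cells was largest for Fzd7 (SD 2.25 cycles) and Wnt5a (SD 2.20), against a median SD of 1.82 over the same 75 assays. It was 2.07 for Fzd4, 1.71 for Fzd10, 1.70 for Ctnnb1 and 1.32 for Fzd9.

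Most cells carried more than 1 frizzled gene, and nearly all combinations included Fzd7, which was found in 87 of the 96 cells. At least 1 of the 4 was detected in 91 of 96 cells (94.8%, interval 88.3 to 98.3%) and at least 2 in 72 (75.0%, interval 65.1 to 83.3%). No frizzled gene was found in 5 cells, 1 in 19 cells, 2 in 44, 3 in 19 and all 4 in 9. The commonest set was Fzd7 with Fzd4, in 24 cells, followed by Fzd7 alone in 18 and Fzd7 with Fzd9 in 11. Fzd7, Fzd4 and Fzd10 were found together in 10 cells, and Fzd7, Fzd4 and Fzd9 in 8. Only 4 cells had a frizzled gene without Fzd7: 3 with Fzd4 and Fzd10, and cell 67 with Fzd9. Cells with more frizzled genes were deeper. Their median number of other assays detected was 16 with no frizzled gene, 36 with 1, 51 with 2, 54 with 3 and 56 with all 4. Of the 5 cells with none, 3 belonged to the low-Gapdh group, and outside it at least 1 frizzled gene was found in 97.7% of 88 cells.

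**Figure D3:**
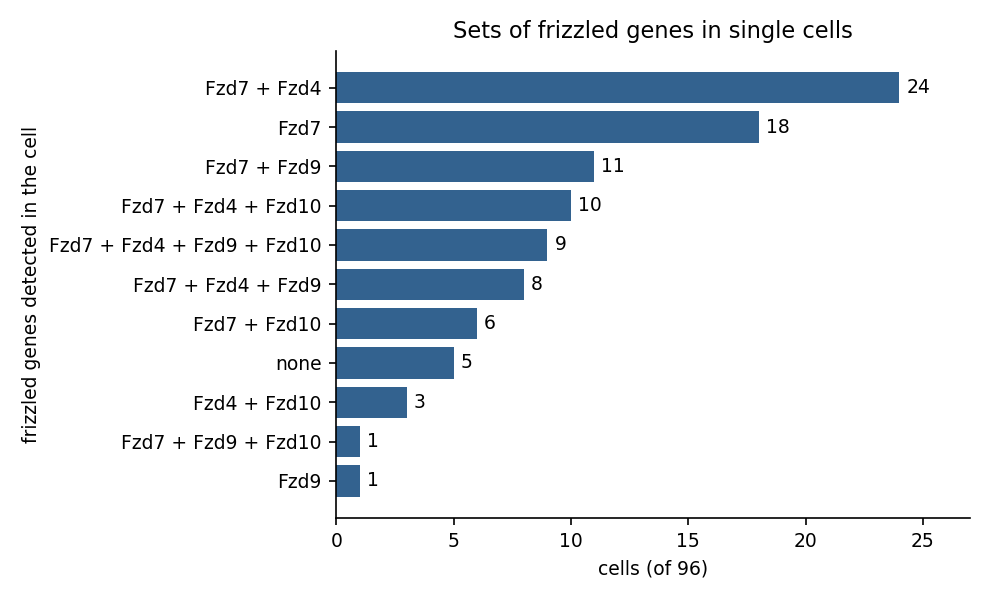
Number of cells (of 96) with each set of detected frizzled genes, as bars starting at 0. Fzd7 with Fzd4 (24 cells) and Fzd7 alone (18 cells) are the largest sets, and 4 cells have a frizzled gene without Fzd7.

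Ligand, receptor and beta-catenin genes were often present in the same cell. Ctnnb1 was detected in all 40 cells with Wnt5a, and 39 of these 40 also had a frizzled gene, in each case Fzd7. The exception was cell 96, with Wnt5a at a Ct of 17.5, Ctnnb1 at 13.4 and no frizzled value. At least 1 frizzled gene and Ctnnb1 were found together in 84 cells. All 6 genes were found in 6 cells (6.25%, interval 2.33 to 13.1%) and none of them in 4. Outside the low-Gapdh cells Ctnnb1 was missing in 4 cells. In 3 of these, Fzd7 was detected, at a Ct of 20.8, 21.1 and 23.5.

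These joint counts lay within 3 cells of the counts expected from depth. The expected number was computed by spreading each gene evenly over the cells of each depth class. For Wnt5a with Ctnnb1 it was 38.3 cells against 40 found, for Wnt5a with Fzd7 37.4 against 39, and for Fzd7 with Ctnnb1 78.2 against 81. For Fzd7 with Fzd4 it was 50.1 against 51, with Fzd9 27.7 against 29, and with Fzd10 27.1 against 26. Over the 15 pairs among the 6 genes the difference between found and expected ran from -1.96 cells (Fzd10 with Wnt5a, 13 found) to 2.83 cells (Fzd4 with Fzd10, 22 found, and Fzd7 with Ctnnb1). Of 4465 pairs of assays, 6.63% were found together in at least 3 cells more than expected and 4.05% in at least 3 cells fewer. None of the 15 pairs reached either bound, and without the low-Gapdh cells they ran from -1.95 to 2.41 cells. The bound was reached under 5 other settings. The largest difference in size was 3.21 cells with a Ct limit of 24, 3 cells with any recorded Ct, 3.14 cells in cells with Gapdh, actin and Hprt, 3.56 cells with 3 depth classes and 5.69 cells without classes.

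**Figure D4:**
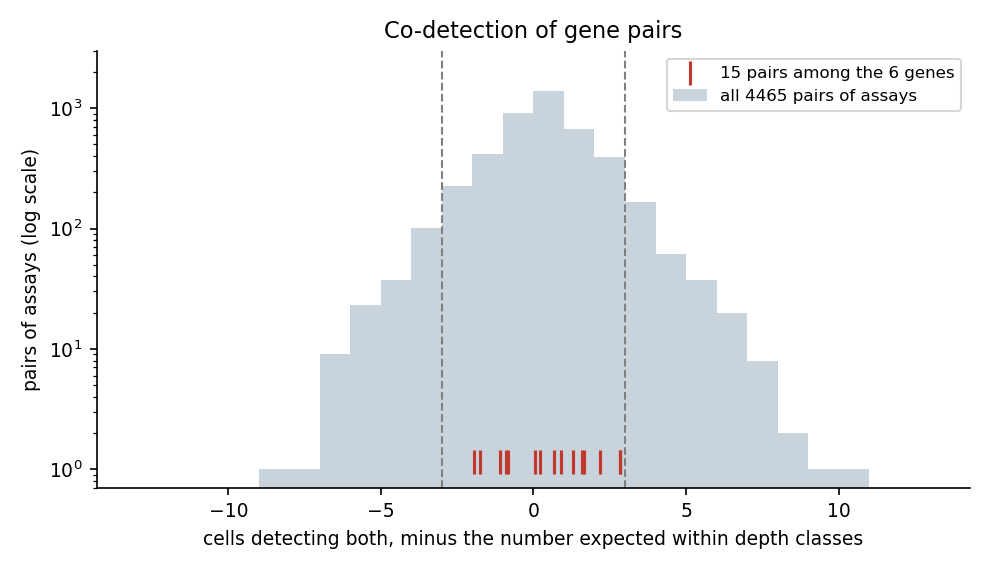
Histogram (log scale) of the number of cells that detected both genes of a pair minus the number expected within depth classes, over 4465 pairs of assays, with the 15 pairs among the 6 genes as red ticks. The red ticks lie between -1.96 and 2.83, inside the dashed lines at 3 cells fewer and 3 cells more.

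Levels of the 6 genes were weakly related to each other. Level was taken as 28 minus Ct (0 where undetected), and a linear fit on the number of other assays detected was subtracted over the 88 cells. The largest Spearman rho in size among the 15 pairs was -0.24, for Fzd7 with Fzd10 (Pearson r = -0.33). The next were Fzd7 with Fzd9 at 0.18 and Wnt5a with Ctnnb1 at 0.17. The median size was 0.12 among the 15 pairs and 0.13 over 3655 pairs of 86 assays. Over those pairs 11.4% had a rho of 0.3 or above and 4.08% one of -0.3 or below, and none of the 15 did. Within cells that detected both genes, the gap between them varied by several cycles: Fzd7 minus Fzd4 had a median of 1.01 cycles with an SD of 2.90 and a range from -3.32 to 9.47 (51 cells).

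Outside the 6 genes, the assay whose level was most like that of Fzd10 was Lgr5, the R-spondin receptor gene that marks stem cells of the mouse intestine. It was the closest of 80 assays, with a rho of 0.62 (r = 0.59, 88 cells). Of the 29 cells with Fzd10, 15 had Lgr5 (51.7%), against 5 of the 67 cells without Fzd10 (7.46%). Within depth classes 7.75 joint cells were expected, an excess of 7.25 (6.77 without the low-Gapdh cells). Of the 4465 pairs of assays, 9 had an excess at least as large. In the deepest class Lgr5 was found in 8 of 13 cells with Fzd10 and in 0 of 11 without it, and in the next class in 6 of 9 and in 1 of 15. In the other 2 classes the pair met in 1 cell of 7 with Fzd10, and Lgr5 was found in 4 of 41 cells without it. The 15 cells with both genes were deep ones, with a median of 57 other assays and a median Gapdh Ct of 11.3, whereas cells with neither had medians of 47.5 and 13.5. Among those 15 cells the Ct of the genes also ran together (rho = 0.83, r = 0.77), without correction for depth. Dpp4, a surface peptidase gene, and Thy1, a glycoprotein gene of stromal and other cells, followed with rho values of 0.46 and 0.44. Dpp4 was found in 16 of the 29 cells with Fzd10 and in 14 of the 67 without it, and Thy1 in 12 and in 5. Within depth classes 10.3 joint cells were expected for Dpp4 and 6.42 for Thy1. Over the 6 measured stromal and muscle markers (Vim, Thy1, Mcam, Nt5e, Mme and sma), the median cell had 3 with or without Fzd10. Their summed level was 12.4 to 43.3 in cells with Fzd10 and 0 to 45.5 in cells without it. The lowest rho of Fzd10 was with the sma assay, smooth muscle actin, at -0.40, though it was 0.41 in the cells that detected both. Fzd10 had 13 of 85 assays at a rho of 0.3 or above, against 11.4% of all pairs.

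The 4 cells with the earliest Fzd10 had almost no Fzd7, a pattern singled out after the values were seen. Fzd10 had a Ct of 15.4 in cell 24, 15.5 in cell 95, 15.7 in cell 72 and 16.5 in cell 47, and the next cell came at 18.0. Fzd7 had no value in cells 24, 72 and 47 and its latest detected Ct of all cells, 27.4, in cell 95. In the other 25 cells with Fzd10, Fzd7 was always detected, at a Ct of 16.7 to 25.6 with a median of 21.1. The 4 cells were not poor in template: Gapdh had a Ct between 10.7 and 11.3 there, and Ctnnb1 one between 12.9 and 14.3. All of them had Lgr5 (Ct 16.1 to 17.8), Epcam (15.2 to 17.9) and Fzd4, the last at 18.0, 18.0, 24.4 and 26.8. None had a value for Fzd9 or for the integrin gene Itga5. The relation of Fzd7 with Fzd10 rested on these cells, as without them rho was -0.10 and r was -0.07 (84 cells). For Fzd10 with Lgr5 rho was 0.57 and r was 0.42 without them.

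**Figure D5:**
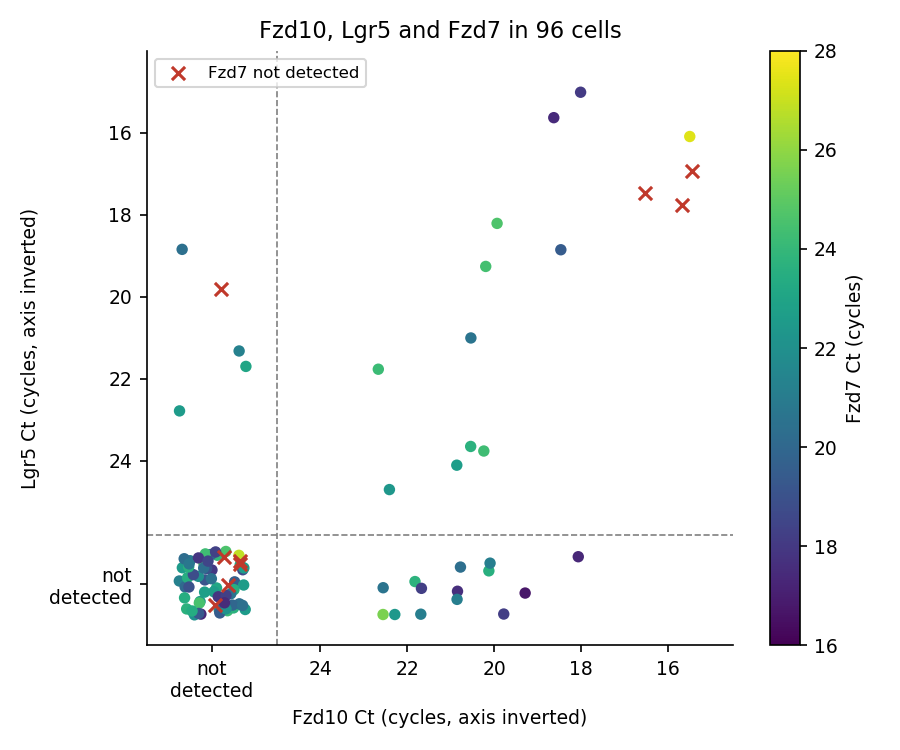
Ct of Fzd10 against Ct of Lgr5 (cycles, both axes inverted) in 96 cells, coloured by Fzd7 Ct, with red crosses where Fzd7 was not detected; cells without a gene are spread at random beyond the dashed lines. The 3 crosses at the upper right are cells 24, 47 and 72, and the yellow point beside them is cell 95.

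Fzd7 itself had the integrin gene Itga5 as its closest assay (rho = 0.53, r = 0.49), followed by the R-spondin receptor gene Lgr6 (rho = 0.38) and the sialomucin gene Cd34 (rho = 0.31). Itga5 was found in 45 of the 87 cells with Fzd7 and in 0 of the 9 without it. With 3 counts as the upper limit of a count of 0, that share could be as high as 33.3%. From the shallowest class to the deepest, Itga5 was found in 7 of 19, 11 of 23, 8 of 22 and 19 of 23 cells with Fzd7. The cells without Fzd7 numbered 5, 1, 2 and 1 in these classes. Within depth classes 41.6 joint cells were expected, an excess of 3.38 (2.36 without the low-Gapdh cells). Of the 4465 pairs of assays, 222 had an excess at least as large. The lowest rho of Fzd7 was with Lgr5, -0.40 (r = -0.45), but in the cells that detected both genes it was 0.29. Lgr5 was found in 16 of the 87 cells with Fzd7 and in 4 of the 9 without it, where 18.5 joint cells were expected. Without the 4 cells of earliest Fzd10 the rho of Fzd7 with Lgr5 was -0.28.

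Fzd9 was closest to the ssea1 assay (rho = 0.51, r = 0.44), taken as Fut4, the fucosyltransferase gene behind the SSEA-1 carbohydrate. Fut4 was found in 19 of the 30 cells with Fzd9 (63.3%) and in 16 of the 66 without it (24.2%), where 12.0 joint cells were expected within depth classes (an excess of 7.04, and of 6.95 without the low-Gapdh cells). In the deepest class these counts were 9 of 11 with Fzd9 and 4 of 13 without it, and in the next class 7 of 9 and 1 of 15. In the 2 shallower classes they were 3 of 10 and 11 of 38. Of the 4465 pairs, 11 had an excess as large. The co-receptor gene Eng was next (rho = 0.41, but r = 0.23, and rho = -0.24 on Ct minus Gapdh Ct), and then Lgr6 (rho = 0.28). Lgr6 was found in 25 of the 30 cells with Fzd9 and in 32 of the 66 without it, where 19.9 joint cells were expected. Lgr5 showed the opposite pattern to the one it had with Fzd10: it was found in 2 of the 30 cells with Fzd9 and in 18 of the 66 without it, where 7.38 joint cells were expected. Over the 4 classes, Lgr5 was found in 0 of 4, 0 of 6, 0 of 9 and 2 of 11 cells with Fzd9, and in 2 of 20, 3 of 18, 7 of 15 and 6 of 13 without it. The lowest rho of Fzd9 was with Prom1 (CD133), at -0.26, and it was 0.064 in the cells that detected both.

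Fzd4 was closest to Esr1, the estrogen receptor alpha gene, at a modest rho of 0.33 (r = 0.32). The surface peptidase genes Mme and Enpep came next, with rho values of 0.22 and 0.21. Esr1 was found in 50 of the 54 cells with Fzd4 (92.6%) and in 24 of the 42 without it (57.1%), with 44.7 joint cells expected. From the shallowest class to the deepest, cells with Fzd4 had Esr1 in 5 of 6, 13 of 14, 15 of 16 and 17 of 18. Cells without Fzd4 had it in 7 of 18, 6 of 10, 5 of 8 and 6 of 6. The lowest rho of Fzd4 was with the insulin receptor gene Insr, at -0.30. It was 0.34 in the cells that detected both genes and -0.10 without the fit on depth. Insr was found in 28 of the 54 cells with Fzd4 and in 28 of the 42 without it, although cells with Fzd4 were deeper, and 35.4 joint cells were expected. The difference was -7.42 cells (-7.27 without the low-Gapdh cells), and only 2 of the 4465 pairs, this one included, lay as far below expectation. Insr was found in 0 of 6, 5 of 14, 9 of 16 and 14 of 18 cells with Fzd4 over the 4 classes. In cells without Fzd4 it was found in 6 of 18, 8 of 10, 8 of 8 and 6 of 6.

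Wnt5a was closest to Tbx3, which encodes a T-box factor, with a rho of 0.39 (r = 0.34). Tbx3 was found in 15 of the 40 cells with Wnt5a (37.5%) and in 7 of the 56 without it (12.5%), with 10.7 joint cells expected. From the shallowest class to the deepest, Tbx3 was found in 0 of 3, 2 of 11, 4 of 10 and 9 of 16 cells with Wnt5a, and in 3 of 21, 1 of 13, 3 of 14 and 0 of 8 without it. Thy1 (rho = 0.27) and the proliferation gene Mki67 (rho = 0.25) came next, and Hopx, a homeodomain gene, was lowest at -0.29, though it was 0.23 in the cells that detected both. Hopx was found in 13 of the 40 cells with Wnt5a and in 23 of the 56 without it, where 18.4 joint cells were expected.

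Cells with Wnt5a carried the epithelial genes in no smaller share than other cells. Epcam was found in 34 of the 40 cells with Wnt5a (85.0%) and in 40 of the 56 without it (71.4%). Within depth classes 34.1 joint cells were expected, so this difference in share was no larger than depth gives. Krt18 and Krt19 were found in all 40 cells with Wnt5a, and in 51 and 53 of the 56 without it. Since Wnt5a is known as a mesenchymal ligand, stromal and muscle markers are given beside it. The median cell had 3 of the 6 with or without Wnt5a. Their summed level had a median of 28.7 in cells with Wnt5a (11.9 to 45.5) and 23.3 in cells without it (0 to 43.3). All 6 were found in a larger share of the cells with Wnt5a, with no account taken of depth. Vim was found in 4 of 40 and 3 of 56 cells, Thy1 in 11 (27.5%) and 6 (10.7%), and Mcam in 10 (25.0%) and 5 (8.93%). For Thy1, 8.46 joint cells were expected within depth classes. Nt5e was found in 37 of 40 and 46 of 56 cells, Mme in 31 and 42, and sma in 32 and 38. The part of stromal RNA in these values was not tested. Wnt7a is the other WNT ligand of the panel and a gene of uterine epithelium. It was found in 22 of the 40 cells with Wnt5a and in 30 of the 56 without it. Within depth classes 26.3 joint cells were expected, a difference of -4.33 cells. Of the 4465 pairs of assays, 56 lay at least as far below expectation, this one included. Both ligands and Epcam were found together in 21 cells.

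The assays closest to Ctnnb1 were Hprt, a purine salvage gene (rho = 0.65), Cd24a, a surface glycoprotein gene (rho = 0.62), and actin (rho = 0.58). With 24 of 85 assays at a rho of 0.3 or above, it had the most of the 6 genes. The counts were 13 for Fzd10, 3 for Fzd7, 2 for Fzd9 and 1 each for Fzd4 and Wnt5a, where 11.4% of all pairs reached that rho. At -0.3 or below the counts were 4 for Fzd7, 2 each for Fzd10 and Ctnnb1 and 0 for the others, against 4.08% of all pairs. Those of Fzd7 included Epcam, at -0.34. Of the other measured epithelial genes, Krt18 had a rho of 0.51 with Ctnnb1, Epcam 0.50, Cdh1 0.42, Krt19 0.39 and Krt8 0.21 (r = -0.018). The lowest was the endothelial gene Pecam1 at -0.34, which was found in all 85 cells with Ctnnb1; over all 96 cells its rho was -0.09, and on Ct minus Gapdh Ct it was 0.013. By co-detection, Ctnnb1 had 8 of 94 assays in at least 3 cells more than expected, Wnt5a 8, Fzd10 7, Fzd9 6, Fzd4 5 and Fzd7 3, shares on either side of the 6.63% of all pairs.

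Of 42 further genes on a WNT-related list, 8 were on the panel. Of these, 5 were found in at least 50% of cells, where 55.2% of all assays of the panel reached that share. Myc, a target of beta-catenin, was found in 85 cells, the R-spondin receptor gene Lgr4 in 78, Cd44 in 77, Lgr6 in 57 and Wnt7a in 52. Sox9 and Prom1 were found in 38 cells each and Lgr5 in 20. Beside Lgr5, Prom1 was also found more often with Fzd10, in 19 of 29 cells with it and 19 of 67 without it (rho = 0.39). Within depth classes 14.9 joint cells were expected for this pair. With Ctnnb1 the level of Wnt7a had a rho of 0.47, that of Myc 0.42 and that of Prom1 0.37. Fzd4 and Wnt5a had no rho beyond 0.2 in size with any of the 8 genes. With Fzd7, besides Lgr5 and Lgr6, Prom1 had a rho of -0.31 and Wnt7a one of -0.29.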

How the data were processed

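The authors deposited raw Ct values, here handled as a score with no normalization, for 96 assays in 96 cells, and per the file headers these are not normalized. Values of exactly 40 (46.9% of 9216) stand for no Ct. Per the labels' protocols, single cells were lysed, preamplified with a 1-step kit and measured on a Fluidigm Biomark chip with Eva Green. The sources used here do not give thresholds or primers. The deposited fold-change table was not used, as it derives from the same Ct values. Columns were matched to cells by number.

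Detection was a Ct below 28. Expected joint counts came from 4 depth classes of 24 cells, with ties split in table order. Level relations are Spearman rho after a linear fit on depth over 88 cells, for assays in at least 10% of them; the 3 highest and the lowest assay per gene are named. Fzd10 with Prom1, Fzd9 with Lgr5 and the 4 cells of earliest Fzd10 were singled out after their values were seen. The steps for joint counts and for level relations were run on simulated data with a planted pair, which was recovered. The simulated levels did not include undetected cells. They therefore do not test the level step as used here, where many cells have no Ct. No p-value is given because the cells form 1 group. The genes and lists were chosen with earlier results of these data known. Tools were scipy 1.17.1, pandas 2.3.3, numpy 2.4.6 and matplotlib 3.10.9 under Python 3.11.15. Alternatives were Ct limits of 24 and 26 or none, 4 subsets of cells, other depth classes, Pearson r, no fit on depth, Ct minus Gapdh Ct, and cells with both genes. Gene names come from the assay names and, for Fzd4, Fzd9 and Fzd10, from their CD designations.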

Additional observations from a re-analysis of the deposited data

How the results depend on the processing

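Of 49 detection shares recomputed with other settings, 45 remained inside the exact interval. The share of Fzd7 was 78.1% with a Ct limit of 24. That of Ctnnb1 was 98.4% in cells with Gapdh, actin and Hprt, 95.5% without the low-Gapdh cells and 94.6% in cells with Epcam. All 42 median Ct values stayed within 1 SD. Without depth classes the largest co-detection difference among the 15 pairs was 5.69 cells (Fzd4 with Fzd10), against 2.83 cells for this pair within 4 depth classes. The largest rho in size was 0.40 without the fit on depth (Wnt5a with Ctnnb1) and 0.66 in cells with both genes (Fzd9 with Fzd10, 10 cells); the cause was not tested. Among the named pairs the sign turned for Fzd7 with Lgr5 (0.29), Fzd10 with sma (0.41), Fzd4 with Insr (0.34), Wnt5a with Hopx (0.23) and Fzd9 with Prom1 (0.064) in cells with both genes, and for Fzd9 with Eng (-0.24) and Ctnnb1 with Pecam1 (0.013) with Ct minus Gapdh Ct; the cause was not tested. Fzd10 with Lgr5 ranged from 0.57 to 0.84, and Fzd9 with Fut4 from 0.44 to 0.51. Dropping the 4 cells of earliest Fzd10 was chosen after the data were seen. No paired analysis was possible because all cells form 1 group. All 6 genes were found in fewer cells of the shallowest depth class than of the deepest.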
